A study of Drosophila melanogaster with 18 samples.

Results

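Gprk2, Galphas and rut are 3 Drosophila melanogaster genes of G-protein signalling, and their poly(A) sites were counted in testes in which factors of mRNA 3′-end formation had been knocked down. The entries of these genes were taken by name from the deposited site counts, which held 6 of their sites among 1082 sites of 522 genes. The genes were selected on values of the same libraries, their site use and totals in the knockdowns, so those values are given here as a description, without p-values. The control testes carried the driver bamGal4 alone. In the other 8 groups the same driver directed RNA interference in spermatocytes against PCF11 (PCF11_KD and PCF11_NIG_KD, made with different RNAi lines), cbc (cbc_KD), CstF64 (CstF64_KD), CstF50 (CstF50_KD), su(f) (suf_KD), CPSF6 (CPSF6_KD) or PABP2 (PABP2_KD). Each group had 2 libraries, each made from about 150 pairs of whole testes pooled from batches of 50 pairs, after crosses of 3 days at 25 °C and growth of the progeny at 29 °C. Every knockdown but that of PCF11 rested on 1 RNAi line, and the pooled testes also held germ cells of other stages and somatic cells. The labels do not say that the duplicates came from separate crosses, so each SD measures only the spread between these samples, which may be technical. Each SE comes from a fit over all 18 libraries that shares its estimate of spread between groups, and it has the same limit.

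A G-protein-coupled receptor passes its signal to a heterotrimeric G protein. Galphas encodes the alpha subunit that stimulates adenylyl cyclase. The gene rut (rutabaga) encodes an adenylyl cyclase that responds to calcium and calmodulin and makes the second messenger cAMP, and it is best known for its part in fly learning. Gprk2 encodes a kinase that phosphorylates G-protein-coupled receptors, and in flies it also phosphorylates Smoothened, the signal transducer of the Hedgehog pathway. A gene with alternative poly(A) sites yields mRNAs with 3′ untranslated regions (3′ UTRs) of different length: cleavage at the proximal site gives the shorter and cleavage at the distal site the longer one. Of the factors knocked down, CstF64, CstF50 and su(f) make up the cleavage stimulation factor. PCF11 and cbc belong to cleavage factor II and CPSF6 to cleavage factor I, and PABP2 is a nuclear poly(A)-binding protein.

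Each of the 3 genes had 2 measured sites, on the coordinates of genome assembly BDGP6. Galphas (FBgn0001123, chromosome 2R, plus strand, 23942538 to 23946936) had its sites at 23946813 and 23946934, which are 66 and 187 nt past its last annotated stop codon. Both lay inside the annotated 3′ UTR, 121 nt apart, and the distal site was 2 nt short of the annotated gene end. The gene rut (FBgn0003301, chromosome X, minus strand, 14787478 to 14826073) had its sites at 14789565 and 14788351, which are 105 and 1319 nt past the last stop codon. Both lay in the annotated 3′ UTR, 1214 nt apart, and the distal site was 873 nt short of the annotated end. Gprk2 (FBgn0261988, chromosome 3R, plus strand, 31405245 to 31457873) had its proximal site at 31456740, in the 3′ UTR and 274 nt past the stop codon. Its distal site at 31457890 was 17 nt past the annotated gene end, and 1150 nt separated the sites. The spacing was longer than in 91.9% of gene entries for rut and in 90.2% for Gprk2, and for Galphas it was longer than in 6.24% of entries, against a median spacing of 415 nt. No other annotated gene covered any of the 6 counting blocks. Counting ignored strand, and Orcokinin, on the opposite strand, ends 25 nt from the distal site of Galphas.

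**Figure D1:**
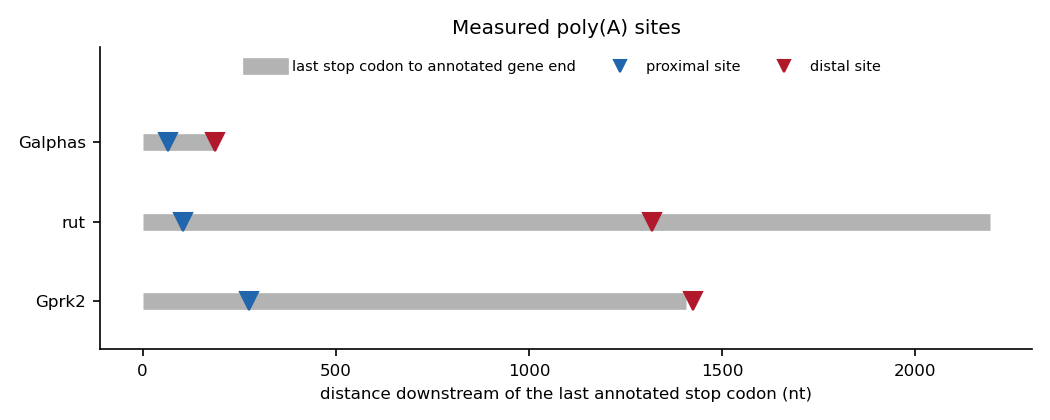
Position of the proximal (blue) and distal (red) poly(A) sites of Galphas, rut and Gprk2, as nt downstream of the last annotated stop codon (x axis); grey bars run to the annotated gene end. The sites of Galphas lie 121 nt apart, those of rut 1214 nt and those of Gprk2 1150 nt.

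Library totals ran from 342763 to 819286 counts over the genes on the authors' site list. None of the 7 targeted genes was among the 522 genes, so the remaining level of the targeted mRNA is not analysed here. All 8 knockdowns are set against the same 2 control libraries, so a deviation of a control library moves all 8 values of a gene together. Counts of knockdown libraries above or below both controls are given below as a description. The share of all gene entries with such a pattern is not given here, so nothing is read from these counts. Levels are given in CPM, here counts per 1000000 counts of the library after TMM scaling, and are relative to the genes on that list. In bulk testes, fewer cells of a type and less RNA per cell cannot be told apart.

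Galphas stood at 314.7 ± 121 CPM in control testes and at 2833 ± 342 CPM in CstF64_KD (mean ± SD, n = 2), and in no other knockdown was its mean above that of control. The 2 CstF64_KD libraries held 1687 and 972 counts of Galphas, against 143 and 75 in the control libraries. In CPM these were 3075 and 2591 in CstF64_KD, and 400.5 and 229 in control, so the groups were far apart. The log2 change of the total was 3.17 ± 0.29 (SE), an 8.97-fold higher level.

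Both Galphas sites were higher in CstF64_KD, the proximal one by more. Its proximal site held 1101 and 653 counts in CstF64_KD against 48 and 30 in control, and its distal site 586 and 319 against 95 and 45. In CPM the mean of the proximal site was 16.6 times that of control, at 1874 ± 188 against 113 ± 30.3, and the distal site stood at 959.3 ± 154 against 201.7 ± 91. The proximal share, which is the proximal site's percent of the gene's counts at its 2 sites, was 65.3% and 67.2% in the CstF64_KD libraries and 33.6% and 40.0% in the control libraries. Proximal against distal use, as log2 odds, differed by 1.78 ± 0.48 (SE), where positive values mean more proximal use. Without control replicate 1 this shift was 1.55, which did not pass the threshold used across all entries (adjusted p under 0.05, edgeR).

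In the other 7 knockdowns the mean Galphas level was below that of control. CstF50_KD libraries had 166.3 and 147.5 CPM, suf_KD libraries 129.9 and 138.7, and CPSF6_KD libraries 163.7 and 193.3, all below both controls. PCF11_KD had 253.4 and 167.8 CPM, PCF11_NIG_KD 280.7 and 234.7, cbc_KD 291.6 and 240.7, and PABP2_KD 247.4 and 141.4, and these ranges overlapped that of control. The log2 changes over these 7 groups ran from -1.23 ± 0.30 in suf_KD to -0.25 ± 0.29 in cbc_KD. In the knockdowns of CstF50 and su(f), the partners of CstF64, the Galphas total was 2.01-fold and 2.35-fold lower than in control.

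In several of these groups the Galphas share differed widely between duplicates. The proximal share was 16.4% and 35.6% in the cbc_KD libraries, 25.0% and 43.1% in suf_KD, 29.4% and 47.4% in PCF11_KD, and 29.3% and 18.1% in PABP2_KD. These pairs differ by more than the 6.43 points between the control libraries. In PCF11_NIG_KD, CstF50_KD and CPSF6_KD the shares lay between 36.6% and 43.7%. With 55 to 222 counts per library in these groups, the 95% Wilson interval of a single share was wide, for example 11.4% to 23.1% in the first cbc_KD library and 28.0% to 44.1% in the second. These intervals hold at most counting error and take each read as independent. Reads lacking molecular identifiers can be copies of 1 molecule, so the intervals may be too narrow. In order of total level, suf_KD stood lowest, below CstF50_KD without overlap, followed by CPSF6_KD, PABP2_KD, PCF11_KD, PCF11_NIG_KD, cbc_KD and control, each of which overlapped the next, and CstF64_KD stood above all of these.

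The measured gene nearest to Galphas, fzr2, 3713 nt away, did not follow its total. Its level was 15940 ± 899 CPM in control and 12662 ± 44.0 CPM in CstF64_KD, a log2 change of -0.33 ± 0.20 (adjusted p = 0.184, edgeR).

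The long 3′ UTR form of rut was the scarcer form in every knockdown, and the proximal share was higher in all 16 knockdown libraries than in either control. Shares in the control libraries were 27.4% and 55.8%, from 23 and 29 proximal counts and 61 and 23 distal counts. In the knockdown libraries they ran from 70.7% to 90.9%, with a median of 81.9%. The 95% Wilson intervals of the 2 controls, 19.0% to 37.7% and 42.3% to 68.4%, did not overlap, though they take each read as independent. The spread between the 2 controls enters all 8 comparisons of rut.

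By group, rut's proximal share was 72.1% ± 1.94 in PCF11_KD, 89.0% ± 1.04 in PCF11_NIG_KD, 87.1% ± 1.84 in cbc_KD, 77.8% ± 5.03 in CstF64_KD, 88.2% ± 3.84 in CstF50_KD, 74.2% ± 1.65 in suf_KD, 80.8% ± 1.12 in CPSF6_KD and 82.2% ± 0.0561 in PABP2_KD (mean ± SD, n = 2). The corresponding control value was 41.6% ± 20.1. In the order of shares, PCF11_KD, suf_KD, CstF64_KD and CPSF6_KD overlapped in turn, PABP2_KD stood just above CPSF6_KD, and cbc_KD, CstF50_KD and PCF11_NIG_KD followed above PABP2_KD and overlapped in turn. The 2 lines against PCF11 thus gave the lowest and the highest mean share among the knockdowns, with no overlap between their libraries.

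The level of the distal rut site carried most of this difference. It was 170.8 and 70.2 CPM in the control libraries and between 6.60 and 37.5 CPM in the 16 knockdown libraries, all below both controls. PCF11_NIG_KD had 7 and 6 distal counts, and its mean distal level of 8.88 ± 0.0449 CPM was 13.6-fold below the control mean. PCF11_KD, with 17 distal counts in each library, was 3.48-fold below it. At such counts the counting error of a single library is large.

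The level of the proximal rut site lay near that of control in most groups. It stood at 64.4 and 88.6 CPM in control, and its group means were 0.758 times to 1.18 times the control mean in all knockdowns but cbc_KD. In cbc_KD it was 209.1 and 195.1 CPM, 2.64 times the control mean and above both controls, from 109 and 107 counts. There the total, at 243.6 and 220.7 CPM, overlapped the 235.2 and 158.8 CPM of control, with a log2 change of 0.23 ± 0.26. In the other 7 knockdowns both libraries had a lower rut total than either control. The lowest were PABP2_KD, with 64.5 and 76.6 CPM and a log2 change of -1.49 ± 0.28, and PCF11_NIG_KD, with 86.0 and 75.8 CPM and -1.28 ± 0.27. PCF11_KD was nearest to control among them, at 108.1 and 141.3 CPM and -0.67 ± 0.27.

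rut's shift in log2 odds was 1.96 ± 0.48 in PCF11_KD, 2.12 ± 0.49 in suf_KD, 2.41 ± 0.52 in CstF64_KD, 2.65 ± 0.53 in CPSF6_KD, 2.78 ± 0.51 in PABP2_KD, 3.34 ± 0.47 in cbc_KD, 3.39 ± 0.54 in CstF50_KD and 3.58 ± 0.52 in PCF11_NIG_KD. Without control replicate 1, the library with the lower proximal share, the shift was smaller in every knockdown. It was then 1.03 in PCF11_KD and 1.19 in suf_KD, neither past the threshold, and it was 2.66 in PCF11_NIG_KD.

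Gprk2 had the lowest total of all 3 genes relative to control: every one of the 16 knockdown libraries lay below both control libraries, and most of the loss was at the distal site. Control libraries held 1508 and 1199 counts of Gprk2, of which 1482 and 1180 were at the distal site and 26 and 19 at the proximal one. In CPM the control totals were 4223 and 3661. Knockdown totals ran from 242.4 to 1726 CPM, with a median of 711.6.

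The knockdowns of CstF64 and su(f) gave the lowest Gprk2 levels. CstF64_KD libraries had 242.4 and 269.3 CPM, a log2 change of -3.95 ± 0.17, and suf_KD libraries 371.7 and 354.4 CPM, a change of -3.44 ± 0.17. These are 15.4-fold and 10.8-fold lower levels. The knockdown of CstF50, the third subunit of the same factor, left a higher level, at 1010 and 858.5 CPM and -2.08 ± 0.16. CstF64_KD, suf_KD and CstF50_KD did not overlap, but differences between knockdowns were not tested.

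PABP2_KD, with 506.4 and 522.8 CPM, and PCF11_KD, with 564.7 and 479.1, lay next and overlapped. Their log2 changes were -2.94 ± 0.16 and -2.92 ± 0.16. The second PCF11 line gave a higher level, with 1316 and 1182 CPM in PCF11_NIG_KD and -1.66 ± 0.15, and it overlapped cbc_KD, with 1274 and 1094 CPM and -1.74 ± 0.15. CPSF6_KD stood nearest to control, at 1726 and 1376 CPM and -1.35 ± 0.15.

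At the 2 sites of Gprk2 taken apart, the proximal level lay on either side of control, and the distal level lay below it in every knockdown library. Proximal levels were 72.8 and 58.0 CPM in control and 18.7 to 126.6 CPM in the knockdowns, 4 of the 16 knockdown libraries being above both controls and 9 below both. Group means of the proximal site ran from 0.425 times the control mean in PABP2_KD to 1.75 times in cbc_KD, where it was 126.6 and 102.1 CPM. Distal levels were 4150 and 3603 CPM in control and 196.8 to 1654 CPM in the knockdowns. The distal mean was 19.0-fold below control in CstF64_KD, 13.9-fold in suf_KD, 8.14-fold in PCF11_KD, 7.96-fold in PABP2_KD, 4.48-fold in CstF50_KD, 3.62-fold in cbc_KD, 3.21-fold in PCF11_NIG_KD and 2.60-fold in CPSF6_KD.

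The proximal share of Gprk2 therefore was higher in all 16 knockdown libraries, although the distal site kept most counts in each. In control it was 1.72% and 1.58%. It reached 18.8% and 21.8% in CstF64_KD and 16.0% and 31.0% in suf_KD, followed by 9.94% and 9.33% in cbc_KD, 10.2% and 6.91% in PCF11_KD and 4.62% and 10.5% in CstF50_KD. PABP2_KD had 7.27% and 3.58%, CPSF6_KD 4.14% and 3.83%, and PCF11_NIG_KD 2.88% and 3.64%. PCF11_NIG_KD lay above control and below CPSF6_KD without overlap, the groups from CPSF6_KD to cbc_KD each overlapped the next, and CstF64_KD and suf_KD stood above these and overlapped. The shift in log2 odds was largest in suf_KD, at 4.14 ± 0.48, and CstF64_KD, at 3.91 ± 0.51, and smallest in PCF11_NIG_KD, at 0.99 ± 0.48. It rested on 11 to 66 proximal counts per library. Without CstF50_KD replicate 2 the shift in that knockdown was 1.52, and without PABP2_KD replicate 1 it was 1.15 in PABP2_KD, and neither passed the threshold.

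**Figure D2:**
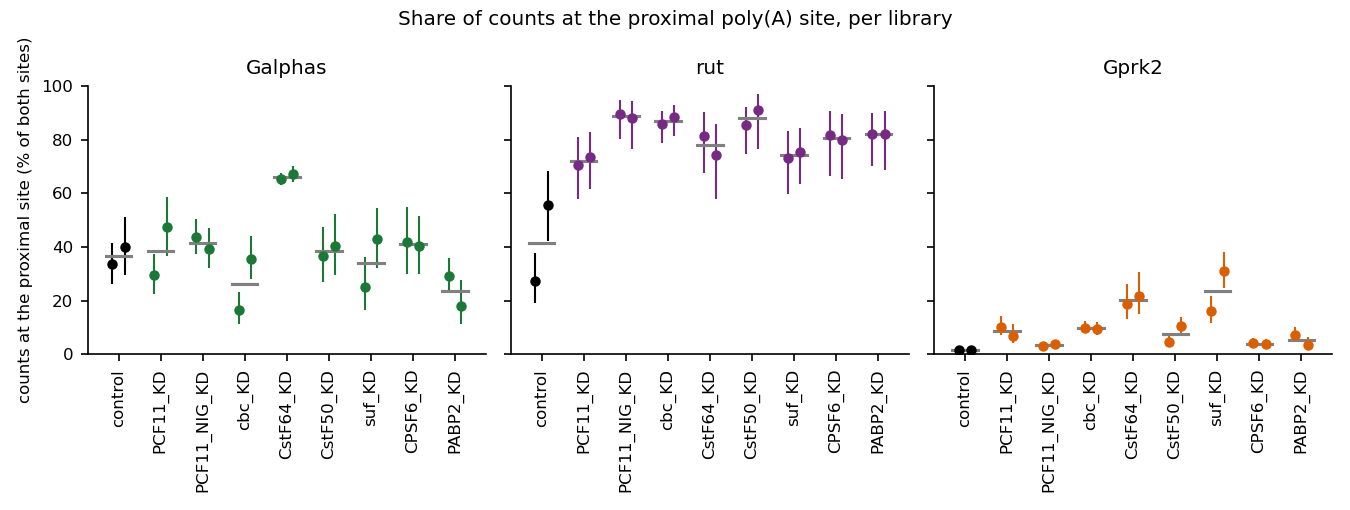
Percent of counts at the proximal site of Galphas, rut and Gprk2 (y axis) in each library of the 9 groups (x axis); points are libraries with 95% Wilson intervals, grey bars are group means, control is black. All 16 knockdown libraries lie above both controls for rut (70.7% to 90.9%) and Gprk2 (2.88% to 31.0%), and Galphas stands apart in CstF64_KD at 65.3% and 67.2%.

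**Figure D3:**
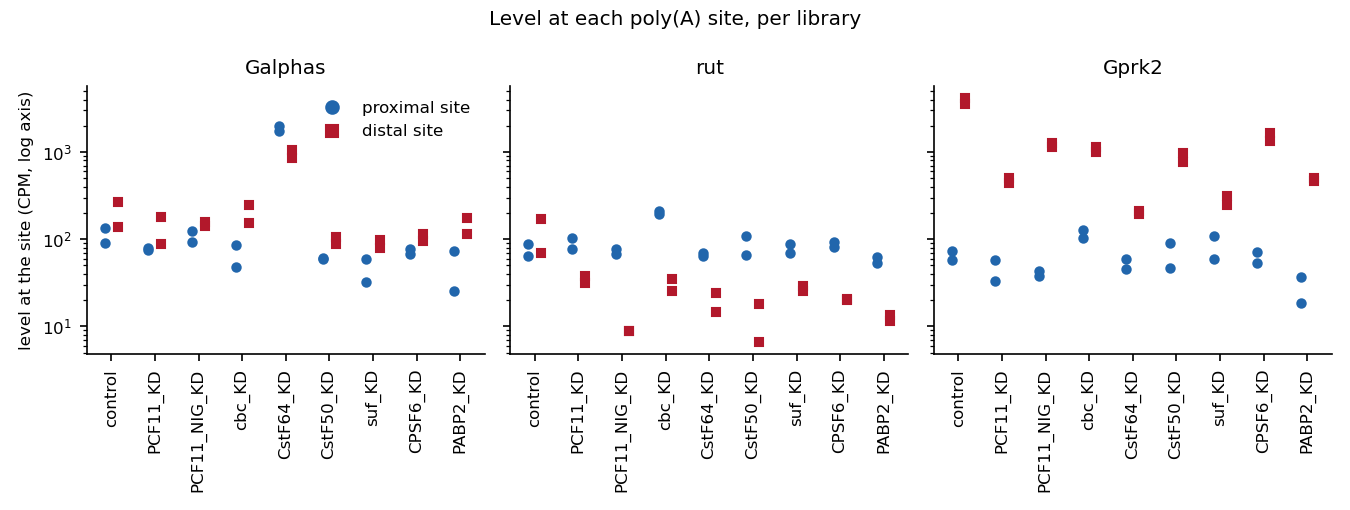
Level of the proximal (blue circles) and distal (red squares) site in CPM on a log axis, 1 point per library, by group. The distal site of rut and of Gprk2 lies below both controls in every knockdown library, and both sites of Galphas are high in CstF64_KD.

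The counts of the 3 genes past the threshold (edgeR, Benjamini-Hochberg adjusted over 525 tested gene entries, 0.05) are given beside the share of all tested entries past it (a few genes have more than 1 entry), and nothing is read from them because the genes were chosen with these contrasts known. For site use, 2 of the 3 genes passed in PCF11_KD, where 53.3% of all tested entries did. The count was 1 in PCF11_NIG_KD, beside 46.3% of all entries, and 2 in cbc_KD, beside 67.2%. It was 3 in CstF64_KD, beside 38.9%, 2 in CstF50_KD, beside 40.8%, and 2 in suf_KD, beside 37.7%. In CPSF6_KD it was 1, beside 38.9%, and in PABP2_KD 2, beside 59.0%. rut passed in 8 of 8 knockdowns, Gprk2 in 6 and Galphas in 1, CstF64_KD. The shifts of Gprk2 in PCF11_NIG_KD and CPSF6_KD, 0.99 ± 0.48 and 1.30 ± 0.50, did not pass.

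For gene totals, 1 of the 3 genes passed in PCF11_KD, beside 45.5% of all tested entries, 2 in PCF11_NIG_KD, beside 43.6%, and 1 in cbc_KD, beside 62.7%. The count was 3 in CstF64_KD, beside 47.6%, 3 in CstF50_KD, beside 35.6%, and 3 in suf_KD, beside 50.3%. It was 3 in CPSF6_KD, beside 37.5%, and 2 in PABP2_KD, beside 62.1%. Gprk2 passed in 8 of 8 knockdowns, rut in 6 (not in PCF11_KD and cbc_KD) and Galphas in 4, CstF64_KD, CstF50_KD, suf_KD and CPSF6_KD. The lower Galphas totals in CstF50_KD, suf_KD and CPSF6_KD did not pass without control replicate 1, the library with the higher level; their log2 changes were then -0.54, -0.77 and -0.36. Without the same library, rut totals in CstF64_KD, CstF50_KD, suf_KD and CPSF6_KD did not pass either, at -0.90, -0.67, -0.59 and -0.57. In CPSF6_KD the Galphas and rut totals also failed without either CPSF6_KD library, and in CstF50_KD without CstF50_KD replicate 2. The Galphas total in CPSF6_KD failed as well with library totals alone (-0.86) and with control and that knockdown fitted alone (-0.82). The rut total in suf_KD failed without suf_KD replicate 1.

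Set among all 525 tested gene entries, Gprk2 had the lowest log2 change of the total in PCF11_KD, CstF64_KD and suf_KD, and ranked 10 from the lowest in PABP2_KD, 13 in CstF50_KD, 14 in PCF11_NIG_KD, 21 in CPSF6_KD and 47 in cbc_KD. Galphas had the highest log2 change of the total in CstF64_KD. In site use rut and Gprk2 lay opposite to most entries where use moved toward distal sites. In cbc_KD the median log2 odds of all entries was -1.75, and 318 of the 353 entries past the threshold moved toward the distal site, whereas rut ranked 3 and Gprk2 ranked 9 from the most proximal change. In PCF11_KD the median was -0.84, and Gprk2 ranked 11 and rut 18. In CstF50_KD, where the median was 0.74 and 178 of 214 entries past the threshold moved toward the proximal site, rut ranked 22 and Gprk2 73. In suf_KD Gprk2 ranked 2 and rut 30, and in CstF64_KD they ranked 5 and 37. In PCF11_NIG_KD Gprk2 ranked 90 and rut 13, in CPSF6_KD 140 and 43, and in PABP2_KD 73 and 37. These ranks describe values that served to choose the genes.

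**Figure D4:**
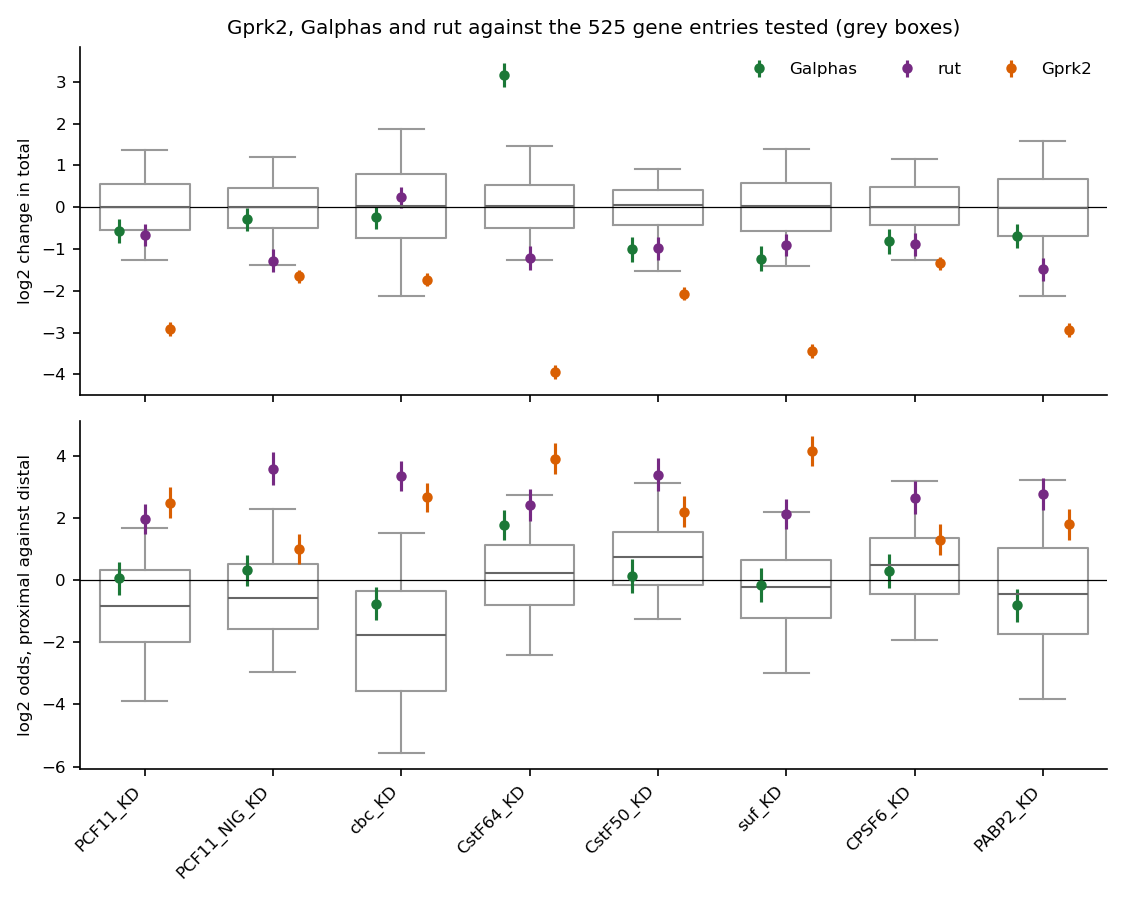
Log2 change of the gene total (top) and proximal against distal use as log2 odds (bottom) in each knockdown against control for Galphas, rut and Gprk2 (points, bars ± SE), over boxes of the 525 gene entries tested (quartiles, whiskers from the 5th to the 95th percentile). Gprk2 totals run from -3.95 to -1.35, Galphas stands at 3.17 in CstF64_KD, and rut use lies between 1.96 and 3.58.

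Few other genes of these pathways were measured. The gene lists here and the marker lists below were also chosen with earlier results of these data known, so their adjusted p-values are descriptive. Of lists of 24 G-protein subunits and direct regulators, 62 G-protein-coupled receptors, 35 genes of cAMP synthesis, breakdown and response, and 24 genes of Hedgehog signal reception, the site list held 2, 1, 2 and 6. Of these 11 genes, 10 could be tested, and hec, a receptor gene, had too few counts. Totals past the threshold numbered 5 of 10 in PCF11_KD, PCF11_NIG_KD, cbc_KD and CstF50_KD, beside 45.5%, 43.6%, 62.7% and 35.6% of all entries. They numbered 4 in CPSF6_KD, beside 37.5%, 3 in CstF64_KD and suf_KD, beside 47.6% and 50.3%, and 8 in PABP2_KD, beside 62.1%. Counts this near the shares of all entries are no result about the list. The median log2 change of the 10 genes lay between -0.13 in PCF11_NIG_KD and 0.39 in PABP2_KD, beside medians of all entries between -0.02 and 0.06.

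Among the cAMP genes, Nf1, which encodes a Ras GTPase-activating protein that also acts on cAMP levels in flies, rose in 8 of 8 knockdowns, by 0.70 in CstF50_KD to 2.47 in cbc_KD on the log2 scale (highest adjusted p = 0.0407, edgeR). Its level was 68.6 CPM in control and 380.2 CPM in cbc_KD. The call in CstF50_KD was lost without any 1 of the control or CstF50_KD libraries, with DESeq2, with library totals alone, and with control and that knockdown fitted alone. Nf1 site use moved toward the proximal site in CstF64_KD, CstF50_KD and CPSF6_KD, by 1.74, 2.00 and 1.94 in log2 odds. Of the alternative values of these site-use calls, 9 of 27 did not pass. Pde1c, a phosphodiesterase gene, rose in 7 knockdowns, from 194.6 CPM in control to 701.7 CPM in cbc_KD, and its change of 0.39 in CstF50_KD did not pass (adjusted p = 0.0739, edgeR). Its rise of 0.48 in CPSF6_KD was lost without either control, without CPSF6_KD replicate 2, with DESeq2, with library totals alone and with control and that knockdown fitted alone. Its site use moved toward the distal site in PCF11_KD, PCF11_NIG_KD and cbc_KD, by -1.63, -1.43 and -3.57 in log2 odds, where rut moved toward the proximal one. The calls in PCF11_KD and PCF11_NIG_KD were lost without control replicate 2. That in PCF11_KD was also lost without PCF11_KD replicate 2, and that in PCF11_NIG_KD without either of its libraries.

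Of the G-protein regulators, ric8a, a chaperone and exchange factor for alpha subunits, moved toward its proximal site in PCF11_KD, PCF11_NIG_KD, cbc_KD and PABP2_KD, by 1.67 to 2.44 in log2 odds (highest adjusted p of these = 0.0412, edgeR). None of these 4 shifts passed without control replicate 1. Its total rose in PCF11_KD, cbc_KD and PABP2_KD, by 1.38, 1.49 and 1.13. The calls in PCF11_KD and PABP2_KD were lost without control replicate 1, and that in PABP2_KD also without PABP2_KD replicate 1 and with control and that knockdown fitted alone. The gene pins, whose product binds alpha subunits in spindle orientation, rose in total in cbc_KD by 0.80 and in PABP2_KD by 0.60, the latter lost without control replicate 1 and with control and that knockdown fitted alone. Its site use moved toward the proximal site in CstF64_KD and suf_KD, by 1.31 and 1.29 in log2 odds, and neither call held without any 1 of the libraries compared.

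In the Hedgehog list, rdx, an adaptor of the ubiquitin ligase that acts on the transcription factor Ci, fell in total in 8 of 8 knockdowns, with log2 changes from -0.84 in PCF11_KD to -2.39 in CstF50_KD (highest adjusted p = 0.0219, edgeR), from 2425 CPM in control to 462.9 CPM in CstF50_KD. Without control replicate 1 its falls in PCF11_KD, CstF64_KD and suf_KD did not pass, nor did they without either PCF11_KD library, CstF64_KD replicate 1 or suf_KD replicate 1 in their own comparison. The site use of rdx moved toward the distal site in PCF11_NIG_KD and CstF50_KD, by -1.78 and -1.25 in log2 odds. Of the alternative values of these site-use calls, 3 of 18 did not pass. The kinase gene dco fell in PABP2_KD, with a log2 change of -1.59, and its 7 other totals did not pass. Its site use moved toward the distal site in cbc_KD, by -2.39 in log2 odds, and toward the proximal one in CstF64_KD, by 1.79. Of the alternative values of these site-use calls, 5 of 18 did not pass. Cul3, the scaffold of the same ligase, rose in total only in CstF50_KD, by 0.37, a call lost under 7 of 10 alternatives. Its site use moved toward the distal site in PCF11_KD, cbc_KD and suf_KD, by -0.88, -2.71 and -1.75 in log2 odds. It moved toward the proximal one in CstF50_KD and CPSF6_KD, by 1.54 and 0.79. Of the alternative values of these site-use calls, 2 of 45 did not pass, both in CPSF6_KD. Usp7, a deubiquitinase gene, moved toward the distal site in PCF11_KD, cbc_KD and PABP2_KD, by -2.64, -3.80 and -2.17 in log2 odds, and toward the proximal one in CstF50_KD and CPSF6_KD, by 1.18 and 1.23. Both proximal calls were lost without control replicate 1, the first also without CstF50_KD replicate 1 and the second without CPSF6_KD replicate 2. The Usp7 total rose in PCF11_KD, by 0.605, and fell in PCF11_NIG_KD and PABP2_KD, with log2 changes of -0.614 and -1.02. Of the alternative values of these calls for totals, 1 of 30 did not pass. The substrate adaptor gene slmb moved toward the proximal site in CstF64_KD, CstF50_KD, suf_KD and PABP2_KD and toward the distal site in cbc_KD, the call in suf_KD being lost without control replicate 1 or suf_KD replicate 2. The slmb total fell in PCF11_NIG_KD, by -0.49 on the log2 scale, and rose in CstF50_KD and PABP2_KD, by 0.54 and 0.64. Of the alternative values of these calls for totals, 14 of 30 did not pass. Smurf, a ubiquitin ligase gene, did not pass for site use in any knockdown. Its total rose in CstF50_KD and CPSF6_KD, by 0.67 and 0.92, and passed under each alternative.

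For site use, 4 of the 10 genes passed in PCF11_KD and CstF64_KD, beside 53.3% and 38.9% of all entries, and 6 in cbc_KD and 5 in CstF50_KD, beside 67.2% and 40.8%. In PCF11_NIG_KD, suf_KD, CPSF6_KD and PABP2_KD 3 passed, beside 46.3%, 37.7%, 38.9% and 59.0%. These counts too lay near or below the shares of all entries. The median log2 odds of the 10 genes ran from -1.58 in cbc_KD, where the median of all entries was -1.75, to 1.41 in CstF50_KD, where it was 0.74.

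**Figure D5:**
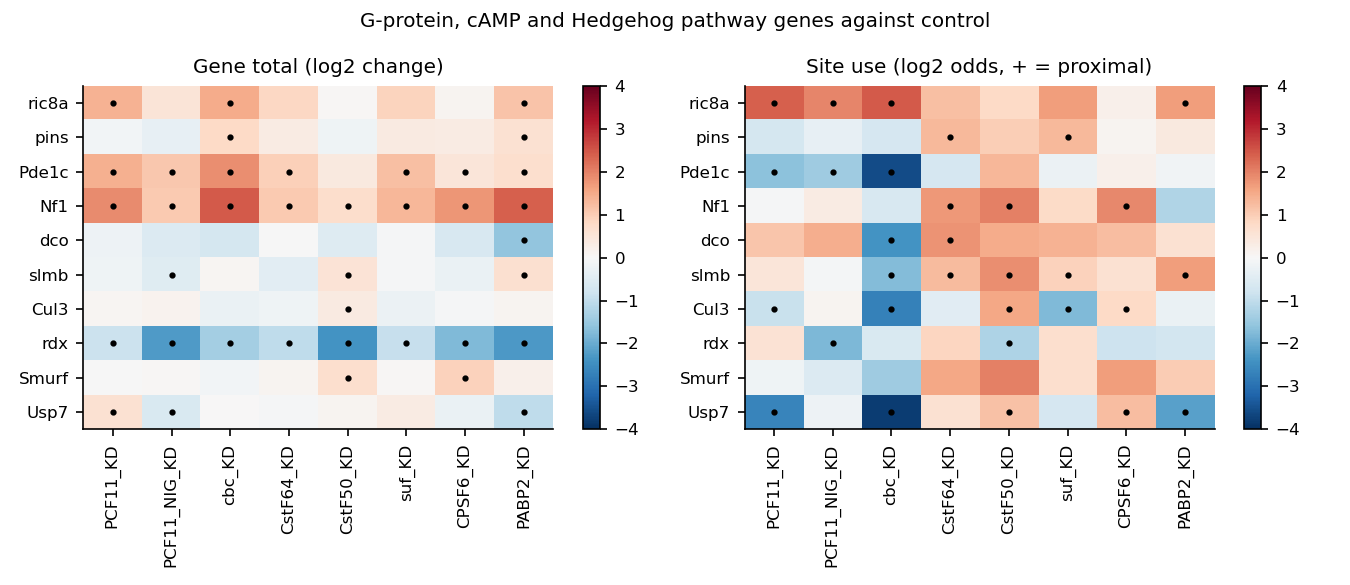
Log2 change of the total (left) and log2 odds of proximal use (right) against control for the 10 tested pathway genes (rows) in the 8 knockdowns (columns); red is higher or more proximal, blue lower or more distal, black dots mark an adjusted p under 0.05. Nf1 is higher and rdx lower in total in all 8 knockdowns.

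The genes whose pattern over the 18 libraries was most like each of the 3 were named among 478 other gene entries that averaged 50 counts or more in a library. The r values are Pearson's over libraries that share groups and the 2 controls, and they serve as a description. For totals in log2 CPM, Gprk2 was most like retm (r = 0.79), Cals (0.79) and Mlf (0.78), Galphas most like CG5639 (0.77), Dl (0.68) and Ptpmeg2 (0.54), and rut most like Tis11 (0.83), Atg18b (0.76) and Liprin-alpha (0.76). Of these, Dl, the Notch ligand Delta, was at 247.7 CPM in control and at 943.3 CPM in CstF64_KD, where Galphas was high. Dl was also higher in suf_KD, at 407.2 CPM, where Galphas stood lowest, and its mean was below control in the other knockdowns. Tis11, an RNA-binding protein gene, was at 1306 CPM in control and at 1356 CPM in cbc_KD, where rut was also at its control level, and at 527.5 to 790.4 CPM in the other knockdowns. For site use in log2 odds, Gprk2 was most like aPKC (r = 0.80), mtd (0.76) and fzr2 (0.76), Galphas most like sno (0.77), Ptpmeg2 (0.76) and Rop (0.75), and rut most like CG10089 (0.80), heph (0.77) and Ephrin (0.76). aPKC, an atypical protein kinase C gene, rose from a proximal share of 19.1% in control to 66.3% in CstF64_KD and 77.6% in suf_KD, the groups with the highest Gprk2 shares. The genes heph, which encodes a polypyrimidine tract binding protein, and Ephrin had high shares in CstF50_KD, 94.3% and 82.8%, against 54.6% and 40.1% in control. In suf_KD they stood at 63.6% and 42.7%, and in PCF11_KD at 78.5% and 47.7%. In these groups the rut share was lowest among the knockdowns, yet above control. Between the 3 genes themselves, totals of Gprk2 and rut had r = 0.53, Gprk2 and Galphas -0.32, and Galphas and rut -0.08.

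Markers of other testis cells moved in the same libraries, and their part in the values above was not tested. Of 10 markers of somatic cyst and hub cells, zfh1 and Wnk were measured. Their summed level was 674.9 to 700.1 CPM in control and 313.5 to 457.9 CPM over the knockdown libraries. The transcription factor gene zfh1 fell in 8 of 8 knockdowns, with log2 changes from -1.16 in CstF50_KD to -2.39 in PABP2_KD (highest adjusted p = 0.0015, edgeR), as the totals of Gprk2 did, whereas Wnk passed in none. Of 9 markers of early germ cells, Rbp9 and chinmo were measured, with a summed level of 2722 to 2895 CPM in control and 1396 to 2595 CPM in all knockdowns but cbc_KD, where it was 3833 to 4416 CPM. Rbp9 fell in 8 of 8 knockdowns, with log2 changes from -1.43 in CstF50_KD to -3.32 in CPSF6_KD, and chinmo rose in 5, 3 of which (PCF11_KD, CstF64_KD and PABP2_KD) did not pass without control replicate 1. Of 12 genes of the spermatocyte programme simj was measured, at 478.9 to 598.5 CPM in control, and it rose in 4 knockdowns, CstF64_KD and suf_KD by 1.34 and 1.47, and PCF11_KD and cbc_KD by 0.73 each, which did not pass without control replicate 1. Of 10 spermatid markers, m-cup, r-cup and nes were measured, and their sum was 9552 to 10520 CPM in control and 8263 to 14334 CPM in the knockdowns. By gene, m-cup fell in PCF11_KD, PCF11_NIG_KD, cbc_KD and PABP2_KD and rose in CPSF6_KD, with log2 changes from -1.06 to 0.64. The gene r-cup rose in PCF11_KD, CstF64_KD and suf_KD, and nes in cbc_KD and PABP2_KD. Of the alternative values of these calls, 4 of 50 did not pass for m-cup, 0 of 30 for r-cup and 2 of 20 for nes. No measured marker was at 0 in any group, and of 8 muscle and pigment cell markers and 4 markers of ejaculatory duct or fat body 0 were measured. With only simj measured of the 12 genes of the spermatocyte programme, the spermatocyte identity of the tissue could not be checked.

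The authors' deposited tables give a PolyAIndex per gene, a score of their own on the shift between sites, which was negative where the proximal share was higher in the values above. In the authors' deposited table rut scored between -1.10 and -0.79 in all 8 knockdowns. Gprk2 was listed in 6 of the 8, and its score in the authors' deposited tables ran from -1.71 in PABP2_KD to -3.83 in suf_KD; PCF11_NIG_KD and CPSF6_KD, in which it was not listed, are those with the smallest shifts here. Galphas scored -0.85 in CstF64_KD in the authors' deposited table, and between -0.17 and 0.64 in the other 7.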

How the data were processed

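Poly(A)-selected RNA ends of whole testes were sequenced with the Lexogen QuantSeq FWD kit, per the labels, in 18 libraries of 9 groups. The authors counted reads with PolyA-miner, whose deposited run logs record unstranded counting (setting 0) without molecular identifiers (setting 0), in blocks of 30 nt at the 1098 sites of their own list. Bowtie and SAMtools are named in the submitters' processing notes, without versions. The deposited tables hold raw counts per site, and the authors' result tables a score, PolyAIndex. How the list was made is not stated in the sources used here; its name sets bam against spermatocytes, so its genes need not be typical of others.

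The 8 count tables held identical control columns and were joined. Site positions were compared with the Ensembl annotation of BDGP6. Gene entries averaging 10 counts or more per library entered the tests, 525 in all. Site use was fitted in edgeR 4.0.16 (R 4.3.3; quasi-likelihood F test, 2-sided) with a coefficient per library and a site term per group, and totals with TMM scaling, both over all 18 libraries. The SE was taken as the size of the log2 change divided by the square root of its F statistic. Benjamini-Hochberg adjustment ran over all entries of a comparison, with a threshold of 0.05. Both fits were tested on simulated data. DESeq2 1.42.0, other scalings, no filter, a replicate block and leaving out each library were tried. Groups came from the labels. Likeness used log2 CPM with a prior of 1 count and log2 odds with 0.5 added. The 3 genes and all gene lists were chosen with earlier results of these data known. Named were the 3 genes, all measured genes of the pathway lists, measured cell markers, and for each of the 3 genes the 3 most like it in total and in site use; fzr2 and the genes near the sites were named from the annotation. No sequence is printed.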

Additional observations from a re-analysis of the deposited data

How the results depend on the processing

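The direction of every Gprk2 total and of every Gprk2 and rut shift in site use was kept under each alternative run, and no value past the threshold changed sign. All 8 Gprk2 totals passed under each of them. With control and a single knockdown fitted alone, 2 of the 3 genes passed for site use in PCF11_NIG_KD, 2 in CPSF6_KD and 0 in PABP2_KD, and 2 for totals in PCF11_KD, also 2 with median-ratio size factors. For pathway genes that fit gave 7 in CstF64_KD, 6 in suf_KD and 5 in CPSF6_KD for site use, and 6 in CstF64_KD, 3 in CstF50_KD, 6 in suf_KD and 4 in PABP2_KD for totals. DESeq2 gave 3 totals in CstF50_KD, and library totals alone 3 in CstF50_KD and 5 in suf_KD.

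Leaving out 1 library at a time, the lone sample of a group being taken to vary like the others, the number of the 3 genes past the threshold for site use ran from 1 to 2 in PCF11_KD, CstF50_KD, suf_KD and PABP2_KD, and for totals from 1 to 3 in PCF11_KD, CstF50_KD, suf_KD and CPSF6_KD. For pathway genes the site-use counts ran from 2 to 4 in PCF11_KD, 1 to 2 in PCF11_NIG_KD, 2 to 6 in CstF50_KD, 1 to 3 in suf_KD, 0 to 3 in CPSF6_KD and 2 to 6 in PABP2_KD, and were 1 in each case in CstF64_KD. Their counts of totals ran from 3 to 5 in PCF11_KD, 3 to 4 in PCF11_NIG_KD, 2 to 5 in CstF50_KD and 5 to 8 in PABP2_KD. Without cbc_KD replicate 2 the Galphas shift there was -1.53 and passed, and without control replicate 2 the totals of Galphas and rut in PCF11_KD passed at -0.85 each. The Galphas total in PABP2_KD, at -0.68, passed with DESeq2, with median-ratio size factors, without control replicate 2 (-0.97) and without PABP2_KD replicate 1 (-1.16).

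Over all 525 gene entries, calls for site use in PABP2_KD numbered 310 in the joint fit and 167 with control and that knockdown alone, and those for totals 326 and 206. Site-use calls fell from 204 to 124 in CstF64_KD without its replicate 1, from 214 to 128 in CstF50_KD without control replicate 1, and from 204 in CPSF6_KD to 134 without control replicate 1 and 129 without its replicate 2. Calls for totals fell from 187 in CstF50_KD to 114 and 123 without control replicates 1 and 2 and to 112 without its replicate 1, and from 197 to 131 in CPSF6_KD without control replicate 1. Library totals alone moved the median of all entries by 0.33 in cbc_KD, 0.11 in suf_KD and 0.12 in PABP2_KD on the log2 scale, and the share of higher among called totals in cbc_KD from 52% to 66.9%; Gprk2 was then at -1.40 there, rut at 0.57 and Galphas at 0.09.

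The labels number the libraries of each group 1 and 2 without saying that a number marks a shared day or batch. In the headers of the deposited counts, the sample indices of control, CPSF6_KD, CstF50_KD and CstF64_KD recur in PABP2_KD, PCF11_KD, suf_KD and PCF11_NIG_KD. What a recurring index marks is not stated. If it marks a batch, then batch and knockdown cannot be told apart in these latter groups. The indices of cbc_KD recur in no other group, so they do not place cbc_KD with either set. Deviations of same-numbered libraries correlated with a median of 0.10 for totals over 36 pairs of groups (range -0.57 to 0.56), and in 16 of these above 0.1. With 2 libraries per group these correlations cannot decide whether some groups shared a batch, because the numbers may be swapped between groups. With the replicate block, the Galphas total in PABP2_KD passed at -0.69, which made 3 of the 3 genes there; the block changed no other call of the 3 genes. The genes most like each of the 3 by the 9 group means kept 1 of 3 names for Gprk2 and 2 of 3 for Galphas and rut, for totals as for site use. A library held as few as 33 counts of rut and 11 proximal counts of Gprk2.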
